A study of Mus musculus with 8 samples.

Results

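The 29 genes described here repair broken DNA or signal that it is broken: homologous recombination, Fanconi and checkpoint genes, with the single-strand break genes Parp1 and Xrcc1 and the Schlafen gene Slfn9. They were taken by gene name from the deposited table, which held all 29 among its 55487 named genes. The rule used names and no measured value, but the list itself was chosen with earlier results of these data known. RNA was sequenced from ileal crypt cells of C57BL/6 mice given CPT-11 at 20 mg/kg for 7 days, 4 libraries, and of mice given vehicle, 4 libraries. CPT-11 is irinotecan, a prodrug whose active form traps topoisomerase I on DNA. The labels name this strain for both groups and no allele, and the sources used here give neither the sex and age of the animals nor what the vehicle was. Crypts were freed from the ileum with EDTA and shaking, then dissociated with trypsin, and no sort was described, so other mucosal cells could be present. Whether the libraries of a group came from different mice is not stated in the labels, so the p-values below measure the spread between these libraries, part of which may be technical.

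As background, a replication fork that meets a trapped topoisomerase I leaves a DNA end with no partner, and cells mend such ends by homologous recombination, which copies the sister chromatid. The MRN complex and CtIP cut the end back, BRCA1, BARD1, PALB2 and BRCA2 prepare it to invade the sister chromatid, and nucleases and the BLM helicase resolve the joined molecules. The Fanconi genes act at forks stalled by crosslinks, and the kinases ATM and ATR, through CHK2 and CHK1, hold the cell cycle meanwhile. Most of these genes are expressed mainly in dividing cells, which in the intestinal lining sit in the crypt.

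None of the 29 genes passed the test in either direction, while most had lower values in CPT-11 crypts. All 29 passed the filter on low counts, and the smallest adjusted p was 0.0521, for Fanci (edgeR quasi-likelihood test, Benjamini-Hochberg adjusted over 14011 genes, two-sided, threshold 0.05). Over all genes tested, 2.52% passed the threshold lower and 2.98% higher. At an unadjusted p below 0.05, 14 of the 29 were lower and 0 were higher. Of all 14011 genes tested, 11.2% were lower and 1873 genes higher at that p. In 13 of the 29 every CPT-11 library lay below every vehicle library, against 10.1% of all genes tested. In 0 of the 29 did every CPT-11 library lie above, against 1181 of the 14011 genes. The log2 fold change, CPT-11 over vehicle, was negative for 25 of 29 genes, or 86.2%, with a median of -0.46, whereas 48.7% of all genes tested were negative, with a median of 0.01. The 4 genes with a positive value were Rbbp8, Mus81, Rad51c and Atr. In RNA from a mixture of cells, fewer cells of a type and less RNA per cell cannot be told apart, here and below.

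**Figure D1:**
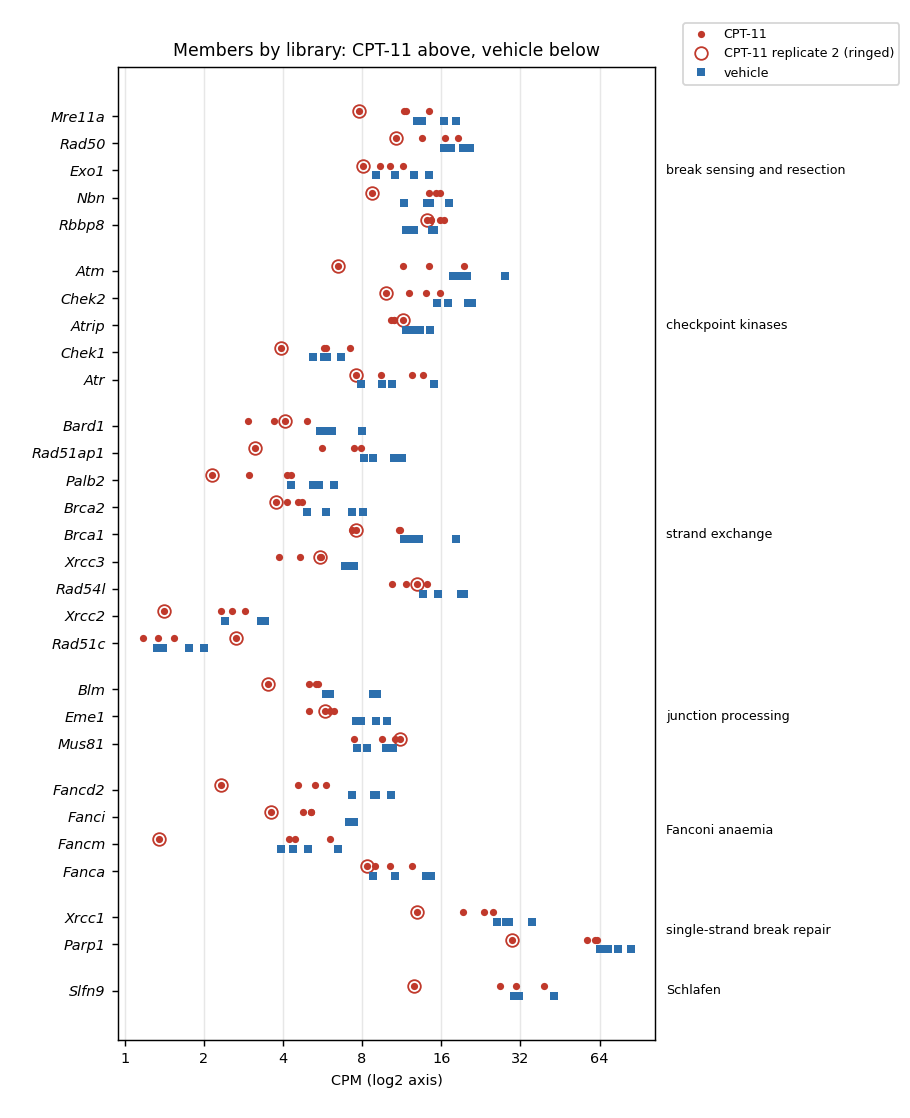
CPM (counts scaled to library size, log2 axis) of each of the 29 genes in every library, grouped by role, with CPT-11 libraries as red circles above the vehicle libraries as blue squares and CPT-11 replicate 2 ringed. In 13 genes the red and blue points do not overlap, and the ringed library is the lowest of all 8 for 20 genes.

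By role, strand exchange held the most genes with non-overlapping groups, and it was also the largest role. Of its 9 genes, 7 were lower at an unadjusted p below 0.05, beside 11.2% of all genes tested. Every CPT-11 library lay below every vehicle library in 6 of the 9, beside 10.1% of all genes tested. The same held for 2 of 3 junction, 2 of 2 single-strand break, 2 of 4 Fanconi, 1 of 5 checkpoint and 0 of 5 break sensing genes. The strand exchange genes had a median log2 fold change of -0.57. The 3 junction genes had a median of -0.58, the 2 single-strand break genes -0.51 and the 4 Fanconi genes -0.47. The 5 genes of break sensing and resection had a median of -0.26 and the 5 checkpoint genes -0.28, with 0 and 2 genes at an unadjusted p below 0.05. No test compared the roles with one another.

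**Figure D2:**
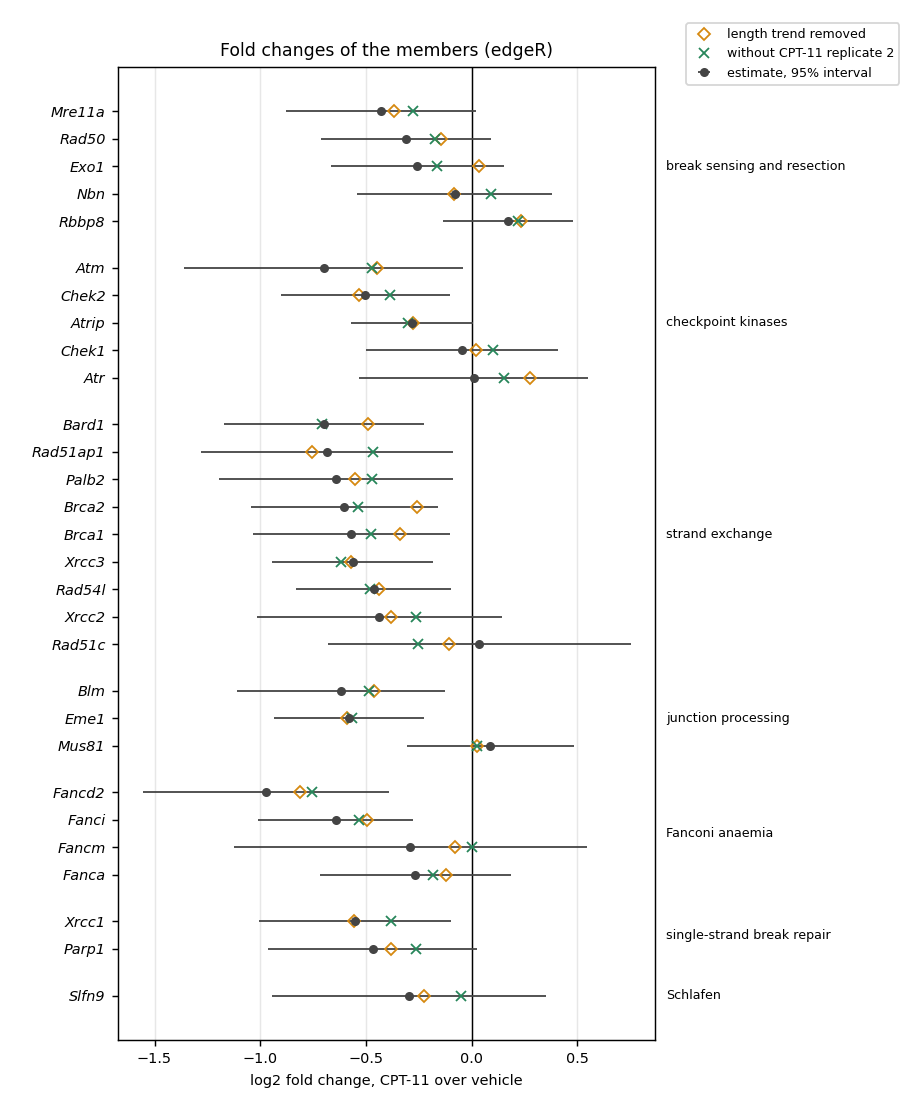
Log2 fold change of each gene, CPT-11 over vehicle, by edgeR (black points, bars for the 95% interval), with the value once the length trend of the library is taken out (open diamonds) and without CPT-11 replicate 2 (crosses). Fancd2 lies farthest to the left at -0.97, Rbbp8 farthest to the right at 0.17, and the intervals of 14 genes lie wholly below 0.

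In the crypts the level of these genes per length of transcript spanned a wide range. On the scale of CPM per kilobase, Parp1 was the highest at 13.6 ± 4.0 in CPT-11 and 18.9 ± 2.2 in vehicle libraries (mean ± SD, n = 4 each, as for all means below). Xrcc1 followed at 7.98 ± 2.1 in CPT-11 and 11.7 ± 1.6 in vehicle libraries, then Slfn9 at 7.08 ± 2.9 and 8.72 ± 1.6, and Chek2 at 5.68 ± 1.1 and 8.06 ± 1.2, in that order of groups. The vehicle levels of Slfn9 and Chek2 did not differ beyond their spread. Brca2 was the lowest, at 0.408 ± 0.041 in CPT-11 and 0.622 ± 0.13 in vehicle libraries, beside Fancm at 0.515 ± 0.25 in CPT-11 and 0.635 ± 0.14 in vehicle libraries, and these vehicle levels too overlapped. The vehicle level of Parp1 was 30.4 times that of Brca2. Counts behind these values ran from 22 to 1928 per gene and library.

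Break sensing and resection showed the smallest differences. Rbbp8 encodes CtIP, which starts the trimming of a broken end together with MRN. Rbbp8 stood at 15.9, 14.1, 16.4 and 14.7 CPM in CPT-11 libraries, against 15.03, 12.6, 11.8 and 14.8 CPM in vehicle libraries (replicates 1 to 4 in order, here and below). The groups overlapped, and the log2 fold change of 0.17, with a 95% interval from -0.13 to 0.48, was the highest of the 29 (adjusted p = 0.450). Of the MRN complex, Mre11a encodes the nuclease, Rad50 the ATPase that tethers ends and Nbn the subunit that recruits ATM. Mre11a averaged 11.4 ± 2.72 CPM in CPT-11 and 15.3 ± 2.48 CPM in vehicle libraries, and Rad50 averaged 14.8 ± 3.42 and 18.4 ± 1.81 CPM in the same order. Nbn averaged 13.5 ± 3.29 CPM in CPT-11 and 14.3 ± 2.28 CPM in vehicle libraries. Exo1, the exonuclease of long-range resection, averaged 9.76 ± 1.46 CPM in CPT-11 and 11.7 ± 2.33 CPM in vehicle libraries. The groups overlapped for all 5 genes, and their adjusted p ran from 0.220 for Mre11a to 0.831 for Nbn.

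Among the checkpoint genes, Atm and its effector Chek2 had negative fold changes, while those of Atr and Chek1 lay near 0, and none of them passed the test. Atm encodes the kinase that answers double-strand breaks. Atm stood at 14.4, 6.48, 19.5 and 11.4 CPM in CPT-11 libraries, against 27.9, 17.8, 18.8 and 20.1 CPM in vehicle libraries. CPT-11 replicate 3 lay inside the vehicle range and the other 3 CPT-11 libraries below it (log2 fold change -0.70, SE 0.30, unadjusted p = 0.0399, adjusted p = 0.182). Chek2, the effector kinase of ATM, stood at 15.9, 9.84, 12.02 and 14.04 CPM in CPT-11 libraries, against 20.1, 15.4, 20.9 and 16.98 CPM in vehicle libraries. Its groups overlapped only through CPT-11 replicate 1 and vehicle replicate 2 (log2 fold change -0.50, SE 0.18, adjusted p = 0.127).

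Atr encodes the kinase of stalled forks. Atr stood at 12.4, 7.59, 13.6 and 9.47 CPM in CPT-11 libraries, against 15.04, 9.52, 7.93 and 10.4 CPM in vehicle libraries, with the groups intermixed (log2 fold change 0.01, 95% interval -0.53 to 0.55). Chek1, the effector kinase of ATR, stood at 7.22, 3.95, 5.73 and 5.83 CPM in CPT-11 libraries, against 6.67, 5.21, 5.89 and 5.72 CPM in vehicle libraries. CPT-11 replicates held both its highest and its lowest value (log2 fold change -0.04, 95% interval -0.50 to 0.41). The adjusted p was 0.986 for Atr and 0.909 for Chek1, and both intervals reach past 0.4 and -0.4, so changes of that size were not detectable here. Atrip, the partner that brings ATR to single-stranded DNA, averaged 10.7 ± 0.488 CPM in CPT-11 and 13.02 ± 1.17 CPM in vehicle libraries, without overlap (log2 fold change -0.28, adjusted p = 0.211). Its exons share 1147 of 7152 bases with Trex1 on the same strand, so the reads of these neighbours may not be fully told apart.

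Of the genes of strand exchange, 8 of 9 had a negative fold change, and Rad51c did not. Brca1 and Bard1 encode the partners of a ubiquitin ligase that promotes resection and recruits PALB2. Brca1 (chromosome 11, 101488764 to 101551955, GRCm38) stood at 11.2, 7.59, 11.01 and 7.32 CPM in CPT-11 libraries, against 18.1, 13.2, 12.3 and 11.5 CPM in vehicle libraries. Bard1 (chromosome 1, 71027498 to 71103146) stood at 2.95, 4.07, 4.94 and 3.71 CPM in CPT-11 libraries, against 5.76, 5.54, 8.02 and 6.14 CPM in vehicle libraries. For both, every CPT-11 library lay below every vehicle library, with CPT-11 replicate 1 close to the lowest Brca1 vehicle value. The log2 fold change was -0.57 for Brca1 (SE 0.21, adjusted p = 0.135) and -0.70 for Bard1 (SE 0.21, adjusted p = 0.0847). Bard1 passed without CPT-11 replicate 3 (log2 fold change -0.84, adjusted p = 0.0443), but not with any other 1 library left out (adjusted p up to 0.241).

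Brca2 encodes a protein that loads the strand exchange machinery onto DNA, and Palb2 its bridge to BRCA1. Brca2 (chromosome 5, 150522630 to 150570329) stood at 4.71, 3.77, 4.56 and 4.14 CPM in CPT-11 libraries, against 8.05, 4.94, 7.31 and 5.84 CPM in vehicle libraries. The groups did not overlap (log2 fold change -0.60, SE 0.20, adjusted p = 0.106), but Brca2 has the longest transcript of the 29, 10517 bases, and with the length trend removed the value was -0.26 (adjusted p = 0.438). Palb2 averaged 3.39 ± 1.01 CPM in CPT-11 and 5.31 ± 0.794 CPM in vehicle libraries, and Rad51ap1, which stimulates the pairing of strands, averaged 6.04 ± 2.16 and 9.73 ± 1.497 CPM in the same order. Neither gene's groups overlapped, with log2 fold changes of -0.64 and -0.68 (adjusted p = 0.152 for Palb2 and 0.155 for Rad51ap1).

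Rad54l encodes a motor protein that helps the invading strand find its match. Rad54l stood at 14.2, 12.9, 10.4 and 11.7 CPM in CPT-11 libraries, against 19.0, 13.7, 19.6 and 15.6 CPM in vehicle libraries, where CPT-11 replicate 1 lay above vehicle replicate 2 (log2 fold change -0.46, SE 0.16, adjusted p = 0.127). Its exons share 1184 of 7706 bases with Lrrc41 on the opposite strand. Xrcc3, Xrcc2 and Rad51c encode related proteins that assist strand exchange. Xrcc3 (chromosome 12, 111803192 to 111813873) stood at 5.59, 5.55, 4.65 and 3.86 CPM in CPT-11 libraries, against 7.41, 6.87, 7.43 and 7.29 CPM in vehicle libraries. The vehicle libraries lay within a narrow band above all CPT-11 libraries (log2 fold change -0.56, SE 0.17, adjusted p = 0.0835). Xrcc3 passed without CPT-11 replicate 2 (-0.62, adjusted p = 0.0487), but not with any other 1 library left out (adjusted p up to 0.216). Rad51c stood at 1.54, 2.65, 1.17 and 1.34 CPM in CPT-11 libraries, against 1.40, 1.33, 1.75 and 2.01 CPM in vehicle libraries. Its highest value was that of CPT-11 replicate 2, and its log2 fold change of 0.04 (95% interval -0.68 to 0.75, adjusted p = 0.954) was -0.25 without that library. Xrcc2 averaged 2.29 ± 0.623 CPM in CPT-11 and 3.11 ± 0.467 CPM in vehicle libraries, with overlap (log2 fold change -0.44, adjusted p = 0.319).

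At the junction stage Eme1 and Blm had lower values and Mus81 did not. Eme1 and Mus81 encode the subunits of an enzyme that cuts branched DNA, EME1 the regulatory one and MUS81 the catalytic one. Eme1 (chromosome 11, 94644996 to 94653964) stood at 6.26, 5.76, 5.01 and 6.04 CPM in CPT-11 libraries, against 9.001, 7.58, 9.98 and 7.89 CPM in vehicle libraries. Mus81 stood at 9.49, 11.1, 7.45 and 10.7 CPM in CPT-11 libraries, against 8.33, 7.68, 9.85 and 10.5 CPM in vehicle libraries. Eme1 groups were apart (log2 fold change -0.58, SE 0.16, adjusted p = 0.0642) and Mus81 groups overlapped (0.09, SE 0.18, adjusted p = 0.778). The value of Eme1 was close to this under 2 of the alternatives, at -0.59 with the length trend removed (adjusted p = 0.0350) and -0.57 without that library (adjusted p = 0.0589). Its exons share 221 of 2762 bases with Lrrc59 on the opposite strand, a gene at 341 to 419 CPM in CPT-11 libraries. Blm, the helicase that dissolves double Holliday junctions, stood at 5.36, 3.52, 5.44 and 5.04 CPM in CPT-11 libraries, against 8.76, 6.06, 5.85 and 9.13 CPM in vehicle libraries. The groups were apart by a small gap (log2 fold change -0.62, SE 0.22, adjusted p = 0.128).

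The Fanconi pair FANCD2 and FANCI held the 2 smallest p of the 29. These proteins form the clamp that is ubiquitinated on crosslinked DNA, the central step of the pathway. Fancd2 (chromosome 6, 113531682 to 113597017) stood at 5.30, 2.33, 5.82 and 4.55 CPM in CPT-11 libraries, against 9.07, 7.30, 10.3 and 8.92 CPM in vehicle libraries. Fanci (chromosome 7, 79391929 to 79450264) stood at 5.12, 3.62, 5.13 and 4.76 CPM in CPT-11 libraries, against 7.16, 7.46, 7.29 and 7.34 CPM in vehicle libraries. No library overlapped for either gene, and CPT-11 replicate 2 was the lowest for both. By the fit Fancd2 was at 50.9% and Fanci at 64% of the vehicle level, with log2 fold changes of -0.97 (SE 0.26, 95% interval -1.56 to -0.39, adjusted p = 0.0603) and -0.64 (SE 0.17, 95% interval -1.01 to -0.28, adjusted p = 0.0521).

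Both genes passed once CPT-11 replicate 2 was left out, with values nearer 0, at -0.76 for Fancd2 (adjusted p = 0.0237) and -0.53 for Fanci (adjusted p = 0.0453). They also passed without CPT-11 replicate 3, at -1.13 for Fancd2 (adjusted p = 0.0388) and -0.70 for Fanci (adjusted p = 0.0433). With the length trend removed the values were -0.81 for Fancd2 (adjusted p = 0.0323) and -0.49 for Fanci (adjusted p = 0.0450). Fanci shares 921 of its 5774 exon bases with Polg on the opposite strand, which stood at 40.7 to 45.5 CPM in CPT-11 and 49.6 to 55.8 CPM in vehicle libraries (log2 fold change -0.32, adjusted p = 0.106), and the sources used here do not say whether the counting used strand. Fanca, a scaffold of the core complex that attaches the ubiquitin, averaged 9.96 ± 1.77 CPM in CPT-11 and 12.0 ± 2.77 CPM in vehicle libraries (log2 fold change -0.27, adjusted p = 0.428). Fanca shares 920 of its 8761 exon bases with Zfp276 on the opposite strand. Zfp276 stood at 11.4 to 22.7 CPM in CPT-11 and 21.2 to 24.2 CPM in vehicle libraries (log2 fold change -0.345, adjusted p = 0.311). Fancm, the translocase that anchors the core complex, averaged 4.01 ± 1.94 CPM in CPT-11 and 4.94 ± 1.12 CPM in vehicle libraries (log2 fold change -0.29, adjusted p = 0.650). CPT-11 replicate 2 held 22 counts of Fancm, and without it the adjusted p was 0.9999.

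Parp1 and Xrcc1 act on nicks and on trapped topoisomerase I, PARP1 as the sensor and XRCC1 as the scaffold it recruits. Parp1 stood at 57.4, 29.6, 62.6 and 61.6 CPM in CPT-11 libraries, against 84.1, 64.3, 75.2 and 68.9 CPM in vehicle libraries. CPT-11 replicate 2 lay far below the other 3, which were close to the lowest vehicle library without reaching it. The log2 fold change of Parp1 was -0.47 (SE 0.22, adjusted p = 0.220), and -0.26 without that library (adjusted p = 0.198). Xrcc1 averaged 20.2 ± 5.38 CPM in CPT-11 and 29.6 ± 4.02 CPM in vehicle libraries, again without overlap (log2 fold change -0.55, adjusted p = 0.139).

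Slfn9 belongs to the Schlafen family, whose human member SLFN11 is known for blocking stalled forks and sensitising tumour cells to topoisomerase I poisons. Slfn9 stood at 30.7, 12.6, 39.4 and 26.7 CPM in CPT-11 libraries, against 42.7, 30.4, 31.6 and 30.1 CPM in vehicle libraries. The CPT-11 libraries were widely spread, with replicate 2 the lowest, and vehicle replicate 1 stood above the other vehicle libraries. The log2 fold change was -0.30 (95% interval -0.95 to 0.35, adjusted p = 0.541), and without CPT-11 replicate 2 it was -0.05. Of 9 other Schlafen genes 5 were tested and 0 passed, with a median log2 fold change of 0.77. Slfn8, another gene of the family, averaged 1.46 ± 0.107 CPM in CPT-11 and 0.851 ± 0.124 CPM in vehicle libraries. Every CPT-11 library of Slfn8 lay above every vehicle library (log2 fold change 0.77, adjusted p = 0.111). Slfn14 and Slfnl1 had 0 counts in all 8 libraries. Reads of similar Schlafen genes may be shared between them. How alike Slfn8 and Slfn9 are was not measured, so how well their reads were told apart is not known.

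Ratios between genes that act together cancel a shared factor within a library, and 11 pairs, of complex partners or of a kinase or enzyme and the protein it acts with, were compared by exact permutation over the 8 libraries. The pairs were chosen after the values were seen, and 0.0286 is the smallest p that 4 against 4 libraries allow. The log2 ratio of Eme1 to Mus81 was -0.56, -0.89, -0.53 and -0.77 in CPT-11 libraries, against 0.11, -0.02, 0.02 and -0.39 in vehicle libraries. The groups did not overlap, and the mean ratio was lower in CPT-11 libraries by a difference of -0.62 (exact p = 0.0286, adjusted over 11 pairs p = 0.157). The log2 ratio of Xrcc3 to Rad51c, the subunits of the CX3 complex, was 1.57, 0.94, 1.62 and 1.25 in CPT-11 libraries, against 2.06, 2.01, 1.82 and 1.64 in vehicle libraries. These groups too were apart, by a difference of means of -0.54 (exact p = 0.0286, adjusted p = 0.157), or -0.40 without CPT-11 replicate 2, though Rad51c rests on low counts.

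The ratio of Nbn to Mre11a averaged 0.24 ± 0.15 in CPT-11 and -0.09 ± 0.15 in vehicle libraries (exact p = 0.0571, adjusted p = 0.209). Fancd2 to Fanci averaged -0.10 ± 0.31 in CPT-11 and 0.26 ± 0.21 in vehicle libraries (exact p = 0.0857, adjusted p = 0.236). The other 7 pairs, Bard1 to Brca1, Palb2 to Brca2, Rad50 to Mre11a, Atrip to Atr, Chek2 to Atm, Chek1 to Atr and Xrcc1 to Parp1, had overlapping groups and exact p from 0.400 to 0.771. None of the 11 pairs passed after adjustment.

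**Figure D3:**
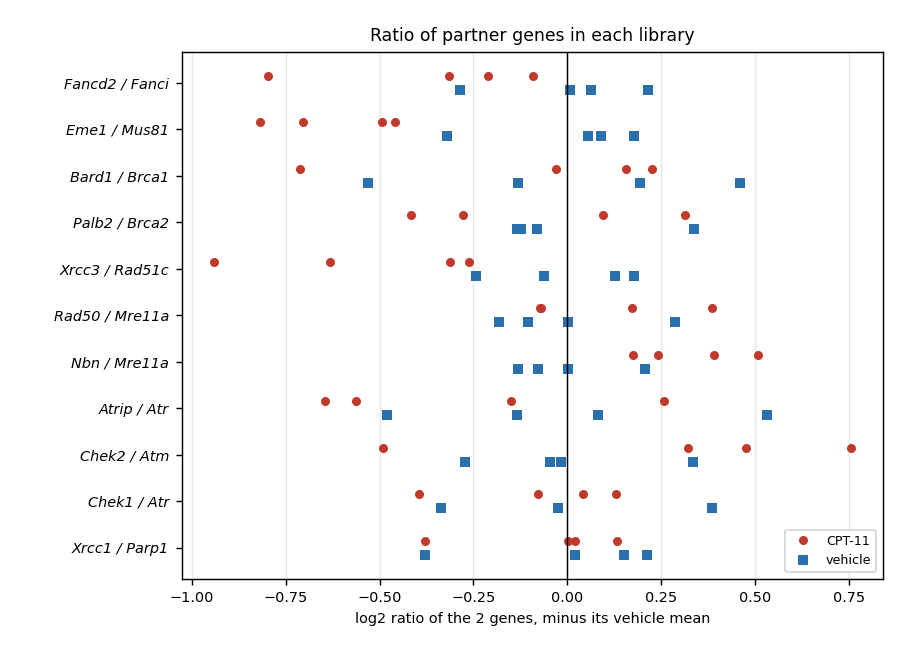
Log2 ratio of the CPM of partner genes in each library (pseudocount 0.5 CPM), minus the mean of the vehicle libraries, for 11 pairs, with CPT-11 as red circles above vehicle as blue squares. Eme1 to Mus81 and Xrcc3 to Rad51c are the pairs whose groups do not overlap, by differences of -0.62 and -0.54.

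The promoters of these genes were read for 3 motifs known from cell cycle genes, as a description of their sequence. RefSeq promoters (GRCm38.p6, 250 bases before to 50 bases after a transcription start) were matched by symbol for 23 of the 29 genes, and Fancd2, Exo1, Rbbp8, Rad50, Nbn and Xrcc2 were not matched. The letters searched, on both strands, were TTTGGCGC or TTTCCCGC for E2F, the factor that turns on genes for S phase, TTTGAA for the CHR element of genes that peak in mitosis, and CCAAT for the CCAAT box. The E2F letters were in 4 of 23 genes (17.4%), against 1.56% of the 32851 promoters in the table. Here and for the next motifs, the first share counts genes, which had 25 promoters together. The second share counts single promoters, of 27025 genes, so the units differ. The CCAAT letters were in 14 of 23 (60.9%), against 37.4% of all promoters, and the CHR letters in 2 of 23 (8.7%), against 17.9%. The CHR letters of Bard1, at position -242, did not overlap its E2F letters. The 4 genes with E2F letters are shown because they divide between Bard1, Brca2 and Chek2, with negative fold changes, and Rad51c, with a value near 0. Capitals mark the E2F letters, in either orientation, in windows of 100 bases written 5′ to 3′ on the gene's strand.
Bard1 (chr1:71103123-71103222, minus strand): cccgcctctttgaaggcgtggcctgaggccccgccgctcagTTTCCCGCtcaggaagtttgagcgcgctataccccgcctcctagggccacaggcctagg
Brca2 (chr5:150522407-150522506, plus strand): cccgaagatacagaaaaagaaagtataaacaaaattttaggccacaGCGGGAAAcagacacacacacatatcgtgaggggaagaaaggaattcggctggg
Chek2 (chr5:110839785-110839884, plus strand): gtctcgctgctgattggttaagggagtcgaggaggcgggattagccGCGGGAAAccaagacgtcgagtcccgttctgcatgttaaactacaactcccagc
Rad51c (chr11:87404906-87405005, minus strand): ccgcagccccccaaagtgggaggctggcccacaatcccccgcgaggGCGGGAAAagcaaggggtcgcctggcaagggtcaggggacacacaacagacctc
Counted from the RefSeq start, the letters began at position -209 in Bard1, -168 in Brca2, -152 in Chek2 and -5 in Rad51c. The RefSeq start of Bard1 lay 174 bases from the nearest GENCODE transcript start and that of Brca2 9 bases, while those of Chek2 and Rad51c coincided with one. Eme1 held the CHR letters on the reverse strand at position 21 from its RefSeq start, which lay 72 bases from the nearest GENCODE transcript start, and Brca1 held a CCAAT box at -86, both in capitals below.
Eme1 (chr11:94653694-94653793, minus strand): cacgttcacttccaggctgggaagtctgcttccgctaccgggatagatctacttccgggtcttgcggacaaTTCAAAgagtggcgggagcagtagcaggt
Brca1 (chr11:101551990-101552089, minus strand): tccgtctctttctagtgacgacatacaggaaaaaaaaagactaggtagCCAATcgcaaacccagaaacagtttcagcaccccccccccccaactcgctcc

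Other genes of the same pathways, 110 in all from lists chosen with earlier results known, had a median log2 fold change of -0.20, and no test compared them with the 29. Of these 110, 4 passed the test lower and 1 higher, beside 2.52% lower and 2.98% higher over all genes tested. These few calls do not set the 110 genes together apart. In 19 of the 110 every CPT-11 library lay below every vehicle library, against 10.1% of all genes tested. In 2 every CPT-11 library lay above, against 1181 of the 14011 genes. The log2 fold change was negative for 73 of the 110, against 48.7% of all genes tested. At an unadjusted p below 0.05 by the edgeR test, 11.2% of all genes tested were lower and 1873 of 14011 higher. Of 40 further recombination genes 0 passed (edgeR quasi-likelihood test, 6 lower and 1 higher at an unadjusted p below 0.05), with a median of -0.20. Those with the smallest p were Top3a, the topoisomerase that works with BLM, Rad51b, a relative of Rad51c, Brip1, a helicase bound to BRCA1, and Parpbp, which restrains recombination, with log2 fold changes of -0.65, -0.70, -0.71 and -0.60 in that order (adjusted p = 0.0768, 0.0839, 0.109 and 0.126).

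Of 21 further Fanconi genes, Ube2t fell, the enzyme that conjugates ubiquitin to FANCD2 and FANCI. Ube2t stood at 5.54, 4.44, 4.86 and 5.88 CPM in CPT-11 libraries, against 10.7, 7.96, 8.94 and 8.40 CPM in vehicle libraries (log2 fold change -0.79, SE 0.17, adjusted p = 0.0254). The call was lost without CPT-11 replicate 1 (adjusted p = 0.0610) and without vehicle replicates 1 (0.0979), 3 (0.0833) or 4 (0.0570). Fancc and Fance, both of the core complex, had log2 fold changes of -0.55 (adjusted p = 0.0510) and -0.42 (adjusted p = 0.118), and Mad2l2, a subunit of a translesion polymerase, 0.77 (adjusted p = 0.127).

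Of 27 further checkpoint genes 3 fell, all regulators of entry into mitosis, beside 2.52% of all genes tested that passed lower. Cdc25c and Cdc25b encode phosphatases that start mitosis, and Wee1 the kinase that opposes them. Cdc25c averaged 5.32 ± 0.970 CPM in CPT-11 and 8.94 ± 0.569 CPM in vehicle libraries (log2 fold change -0.75, adjusted p = 0.0345). Cdc25b averaged 20.83 ± 2.48 CPM in CPT-11 and 31.5 ± 4.05 CPM in vehicle libraries (-0.60, adjusted p = 0.0411). Wee1 averaged 12.6 ± 3.43 CPM in CPT-11 and 21.7 ± 2.05 CPM in vehicle libraries (-0.78, adjusted p = 0.0423). The calls of Cdc25c and Wee1 were lost without any 1 of CPT-11 replicates 1 and 4 and vehicle replicates 1 to 4 (adjusted p up to 0.112 for Cdc25c and 0.137 for Wee1), and that of Cdc25b without CPT-11 replicates 1 or 4 or vehicle replicates 1, 3 or 4 (up to 0.137). H2ax, the histone that ATM marks at breaks, was at -0.70 on the log2 scale without passing (adjusted p = 0.0830).

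End joining, which seals ends without a template, had a median of 0.05 over 10 genes, and 0 passed (edgeR, 0 at an unadjusted p below 0.05). The smallest p were those of Prkdc, its kinase (log2 fold change -0.58), Paxx (0.58), Nhej1 (0.69) and Xrcc5 (0.27), with adjusted p from 0.297 to 0.342. Paxx and Nhej1 were highest in CPT-11 replicate 2, at 22.5 and 8.82 CPM. The 12 further single-strand break genes had a median of 0.04. Parp3, a PARP that marks breaks, rose to 9.28 ± 0.868 CPM in CPT-11 libraries, against 5.97 ± 0.872 CPM in vehicle libraries (log2 fold change 0.64, adjusted p = 0.0493). That call was lost without any 1 library other than CPT-11 replicate 2 (adjusted p from 0.0590 to 0.150). On the log2 scale Lig1, a DNA ligase, was at -0.51 (adjusted p = 0.0930), Aptx, which cleans blocked 5′ ends, at 0.63 (0.122) and Polb, a gap-filling polymerase, at 0.42 (0.153).

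Some markers of dividing and stem cells also fell in the CPT-11 libraries. Over all genes tested, 2.52% passed the test lower and 2.98% higher, and 11.2% were lower at an unadjusted p below 0.05 (edgeR). Of 14 mitotic markers 6 fell and 0 rose (4 to 8 fell with any 1 library left out, 8 of them without CPT-11 replicate 2 and 4 without CPT-11 replicate 4 or vehicle replicates 1, 3 or 4), with a median log2 fold change of -0.60 and summed levels of 571 to 714 CPM in CPT-11 and 882 to 1185 CPM in vehicle libraries. Mki67, the marker of cycling cells, stood at 71.7, 39.4, 87.8 and 51.0 CPM in CPT-11 libraries, against 190.4, 114, 131.8 and 130.2 CPM in vehicle libraries (log2 fold change -1.18, adjusted p = 0.0296). Its call was lost without CPT-11 replicates 1 (adjusted p = 0.0610) or 4 (0.0817) or vehicle replicates 1 (0.0948), 3 (0.0812) or 4 (0.0617). Of 15 S phase markers 0 passed (edgeR, 1 lower and 0 higher at an unadjusted p below 0.05), with a median of -0.16, and Pcna, the replication clamp, averaged 143 ± 23.53 CPM in CPT-11 and 150.2 ± 5.26 CPM in vehicle libraries. Of 5 crypt base stem cell markers 3 fell, Lgr5, Olfm4 and Smoc2, whichever library was left out, with summed levels of 365 to 545 CPM in CPT-11 and 1317 to 1559 CPM in vehicle libraries. Olfm4 made up most of these sums, at 278.6 to 427 CPM in CPT-11 and 1149 to 1366 CPM in vehicle libraries. Axin2 did not pass (log2 fold change -0.35, adjusted p = 0.274), nor did Ascl2, whose value was positive (0.37, adjusted p = 0.260). The part of these cells in the values of the repair genes was not tested.

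Markers of other cells were read in the same way, and none was at 0 in every library. Their counts stand beside 2.52% of all genes tested that passed lower and 2.98% that passed higher. At an unadjusted p below 0.05 (edgeR), 11.2% of all genes tested were lower and 1873 of 14011 higher. In 10.1% of all genes tested every CPT-11 library lay below every vehicle library. None of 5 epithelial markers passed (1 higher and 0 lower at an unadjusted p below 0.05) and their mean log2(CPM + 0.5) was 10.35 to 10.52 in CPT-11 and 10.17 to 10.32 in vehicle libraries. Of 10 enterocyte markers Fabp2 rose, a call lost without CPT-11 replicate 1 or vehicle replicates 1 to 4, with sums of 19380 to 62210 CPM in CPT-11 and 10740 to 17670 CPM in vehicle libraries, and the highest sum was that of CPT-11 replicate 2. Of 6 B and plasma cell markers 5 were tested and 4 rose, among them Cd79a, Cd79b and Ms4a1, with sums of 7.45 to 16.1 CPM in CPT-11 and 1.44 to 5.89 CPM in vehicle libraries. The 4 calls became 0 without CPT-11 replicates 1 or 4 or vehicle replicates 1 or 4, and 1 without vehicle replicate 2. Of 12 interferon-stimulated genes 4 rose, with a median log2 fold change of 1.38, and 1 to 10 rose with any 1 library left out, 1 without vehicle replicates 1 or 3, 2 without vehicle replicate 2 and 10 without vehicle replicate 4. None of the Paneth, goblet, T cell, myeloid or stroma and endothelium markers passed. Of 4 Paneth markers 2 were lower at an unadjusted p below 0.05, Lyz1 and Itln1, with every CPT-11 library below every vehicle library, and 3 passed lower with the length trend removed. Paneth sums were 16830 to 23060 CPM in CPT-11 and 25440 to 36140 CPM in vehicle libraries. Of the 5 tested stroma and endothelium markers, 3 had higher values and 0 lower ones by the same unadjusted p, with a median log2 fold change of 0.82 and sums of 45.2 to 125.3 CPM in CPT-11 and 20.2 to 59.1 CPM in vehicle libraries. At that p, goblet markers had 1 of 4 higher and T cell markers 1 of 5 higher. Myeloid markers had 1 higher and 1 lower of 5 tested. The median log2 fold changes were 0.72, 0.40 and -0.12 in that order. Goblet sums stood at 19740 CPM in CPT-11 replicate 2 and 11800 CPM in CPT-11 replicate 4. CPT-11 replicates 1 and 3, at 6993 and 7166 CPM, lay inside the vehicle range of 6782 to 9513 CPM. Leaving out CPT-11 replicate 2 brought the goblet value down to 0.29, and dropping replicates 2 and 4 together brought it to -0.15. Without CPT-11 replicate 2 Itln1 and Itgam passed lower, and Itgam also without CPT-11 replicate 3. The part of these lists in the values of the repair genes was not tested.

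CPT-11 replicate 2 and the length of the transcript moved with the repair genes. Total counts were 20670728 to 23323653 per library, and CPT-11 replicate 2 had a scaling factor of 0.731, against 0.977 to 1.1 in the other 7 libraries. That library was the lowest of all 8 for 20 of the 29 genes. The median log2 ratio of the 29 genes to their vehicle mean was -0.27, -0.75, -0.29 and -0.35 in CPT-11 libraries, against 0.18, -0.17, 0.05 and -0.06 in vehicle libraries, so each CPT-11 library lay below each vehicle library also without replicate 2. Without that library the median log2 fold change of the 29 genes was -0.30, with 24 of them negative.

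The transcripts of the 29 genes were long, with a median of 3750 bases against 2708 bases over all genes tested. Genes of 8000 bases had a log2 deviation of -0.51 in CPT-11 replicate 2 and -0.33 in CPT-11 replicate 4, while CPT-11 replicates 1 and 3 had 0.01 and 0.29, and vehicle libraries 0.30, 0.12, 0.08 and 0.08. At 1000 bases the CPT-11 libraries had -0.01, 0.62, -0.24 and 0.19, and vehicle libraries -0.21, -0.08, -0.06 and -0.09. CPT-11 replicate 3 thus ran the other way from replicates 2 and 4, close to vehicle replicate 1. With each library's length trend removed the median log2 fold change of the 29 was -0.37, and 3 passed the test, Fancd2, Fanci and Eme1. The 15 genes over 3500 bases had a median of -0.57, or -0.34 with the trend removed, and the 14 shorter ones -0.43, or -0.38 with it removed. Across the 29 genes, which are not independent replicates, the Spearman correlation of length with the log2 fold change was -0.24, and 0.22 with the trend removed.

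**Figure D4:**
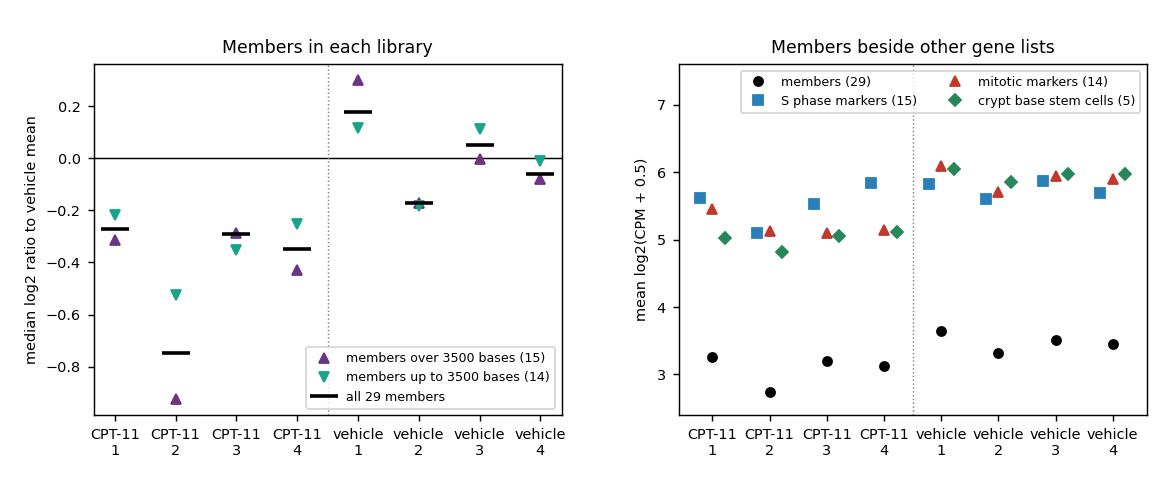
Left, the median log2 ratio of the 29 genes to their vehicle mean in each library (bars), with the 15 genes over 3500 bases (upward triangles) and the 14 up to 3500 bases (downward triangles). Right, the mean log2(CPM + 0.5) of the 29 genes (black circles), S phase markers, mitotic markers and crypt base stem cell markers in the same libraries. The 29 genes are lowest in CPT-11 replicate 2, at -0.75 on the left, where the long genes stand at -0.92 and the shorter ones at -0.52.

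The spread between CPT-11 libraries depended on replicate 2. The coefficient of variation of CPM had a median of 23.1% in CPT-11 and 15.4% in vehicle libraries over the 29 genes, and was higher in CPT-11 for 20 of them. Without CPT-11 replicate 2 the CPT-11 median was 13.7%, below the vehicle median, and 11 of the 29 genes had the higher value in CPT-11, with Parp1 at 4.53% against 29.6% over all 4 CPT-11 libraries. In vehicle libraries it ran from 1.69% for Fanci to 28.5% for Atr, and in CPT-11 libraries from 4.55% for Atrip to 48.4% for Fancm. The steadiest genes in vehicle crypts, Fanci and Xrcc3, were also among the 4 with the smallest p. The test uses this same spread, so this is not a separate result.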

How the data were processed

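Ileal crypt RNA was sequenced in 8 libraries, 4 from mice given CPT-11 and 4 from mice given vehicle. The authors deposited estimated counts per gene, which were not normalized and need not be whole (16 of the 29 genes had such values); per the submitters' processing notes, Bowtie2 2.4.1 and GRCm38.p6 were used, while the sources used here name neither the counter nor its use of strand. Of 56030 rows, 543 named no gene and were left out (0.325% to 0.662% of the counts of a library). The deposited estimated counts were rounded, and edgeR 4.0.16 (R 4.3.3) gave the tests (TMM scaling, a filter of about 10 counts in a group and 15 in total, robust quasi-likelihood F test, Benjamini-Hochberg over 14011 genes, threshold 0.05). The fit was checked on simulated counts with the same dispersion for every gene. These had no outlying library and no length trend, so the check does not cover those features of the data. CPM are counts divided by the TMM-scaled library size. SEs come from the F statistic. Ratios of partners were tested by exact permutation with a pseudocount of 0.5 CPM. The length trend of a library was a lowess curve (span 0.3) of its log2 CPM deviation on the table's gene length. Positions are those of GENCODE M21, in which all 29 genes were found. Alternatives were no filter, RLE or upper-quartile scaling, a filter of 1 CPM in 4 libraries, DESeq2 1.42.0, limma-voom (limma 3.58.1) with and without quality weights, a replicate block, the length trend removed, CPT-11 replicates 2 and 4 left out together, and each library left out.

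The 29 genes and all lists were chosen with earlier results of these data known. Values in every library are given for the 10 genes with the smallest p, the 3 with the highest fold change, and Slfn9, Chek1, Chek2, Atm, Atr, Parp1, Brca1 and Brca2, and group means for the rest. Of each list of partners the 4 with the smallest p are named, with Mki67 and Pcna always, and some items are not reported here. Marker and Schlafen genes named with a count were named after their values were seen. Protein sequences were not used here.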

Additional observations from a re-analysis of the deposited data

Results flagged for a closer look

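In 6 of 102 sets of 4 libraries checked, for the 29 genes and the named partners, the highest or lowest library stood away from the other 3 by Dixon's test of the gap over the range, and chance gives about 1 in 20. Parp1 stood at 29.6 CPM in CPT-11 replicate 2, against 57.4 to 62.6 CPM in the other CPT-11 libraries. Xrcc2 stood at 2.42 CPM in vehicle replicate 2, against 3.31 to 3.41 CPM in the other vehicle libraries. Slfn9 stood at 42.7 CPM in vehicle replicate 1, against 30.1 to 31.6 CPM in the other vehicle libraries. Cdc25b stood at 24.5 CPM in CPT-11 replicate 1, against 19.3 to 20.0 CPM in the others of its group, and at 25.5 CPM in vehicle replicate 2, against 32.9 to 34.3 CPM in the others of that group. Paxx stood at 22.5 CPM in CPT-11 replicate 2, against 6.65 to 7.96 CPM in the other CPT-11 libraries. What set these libraries apart was not tested.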

How the results depend on the processing

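Of the 29 genes, 0 passed the test as reported. The count was 1 with RLE scaling, 1 with no filter, 5 with DESeq2, 1 with limma-voom, 7 with quality weights, 1 with the replicate block, 3 with the length trend removed, 1 without CPT-11 replicates 2 and 4, and 0 to 3 with any 1 library left out. In these settings 7 of the 29 were called at least once, Fancd2 in 8 of 18, and 22 never, and the median log2 fold change of the 29 stayed between -0.55 and -0.30. The number of genes changed, 770 over all genes, was 1884 with DESeq2, 3172 with quality weights, 1299 with the length trend removed, 1212 without CPT-11 replicates 2 and 4, and 236 to 1522 with any 1 library left out. The number of partner genes changed, 5 of 110, was 13 with DESeq2, 21 with quality weights, 1 with the replicate block, 10 with the length trend removed, 8 without CPT-11 replicates 2 and 4, and 0 to 8 with any 1 library left out. The labels do not say whether the replicate numbers pair the samples. Correlations of deviations were 0.234, 0.144, -0.119 and 0.0911 for the same number, and -0.274 to 0.244 for different numbers. So few correlations cannot show whether the samples were paired. The block brought Fancd2 past the threshold (adjusted p = 0.0382).

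The sign of 21 of the 29 genes held in all 18 alternatives, and 8 changed sign in at least 1. Rad51c was -0.047 with limma-voom, -0.12 with quality weights, -0.0092 with the block, -0.11 with the length trend removed, -0.25 without CPT-11 replicates 2 and 4, and -0.25 to 0.17 with any 1 library left out. Chek1 was 0.21 with quality weights, 0.021 with the length trend removed, 0.14 without CPT-11 replicates 2 and 4, and -0.18 to 0.10 with any 1 library left out. Atr was -0.017 with no filter and -0.13 to 0.22 with any 1 library left out, and Exo1 was 0.035 with the length trend removed. Nbn was 0.087 with quality weights, 0.053 without CPT-11 replicates 2 and 4, and -0.17 to 0.090 with any 1 library left out. Without CPT-11 replicates 2 and 4, Fancm was 0.093, Mus81 -0.099, Slfn9 0.064, Paxx -0.037 and Nhej1 -0.22. Pcna was -0.19 to 6.1e-05 with any 1 library left out. The cause was not tested. With 22 to 1928 counts per gene and library, intervals cover the spread between libraries only.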
